A study of Mus musculus with 6 samples.

Results

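The kallikrein-related peptidases Klk5, Klk6, Klk7, Klk8, Klk9, Klk10, Klk11, Klk12, Klk13 and Klk14 are secreted serine proteases of stratified epithelia. They were taken by gene symbol from a table of 24067 genes. All 10 were found, and all 10 were among the 15903 genes with enough counts to be tested. The family was singled out with its values in knockout and wild-type tongues already known, so those values are given here as a description and carry no test of the family.

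The libraries came from tongues of C57BL/6 mice about 34 weeks old. The tested tongues were labelled HuR KO (n = 3) and the comparison tongues HuR wild type (WT, n = 3). HuR, encoded by Elavl1, is a protein that binds AU-rich stretches in messenger RNA. Mice of both groups, WT included, had received the carcinogen 4-nitroquinoline 1-oxide over 16 weeks, followed by a wait of 12 weeks. Tongue was excised together with its tumour, so each library mixes epithelium, tumour, muscle and stroma. The labels do not say which promoter or cell type drove the deletion. They do not state that each replicate is a separate animal. Sex-linked genes, given below, place KO replicate 1 in a male and KO replicates 2 and 3 in females. The KO libraries therefore do not share a single animal, but whether all replicates are separate animals is not known. A p-value here reflects only how these samples vary, which may in part be technical.

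Kallikreins are made as inactive proenzymes in the upper layers of squamous epithelium, stored in lamellar granules and released between the cells. There they activate each other in a cascade and cut corneodesmosin, desmocollin and desmoglein, the proteins that hold dead surface cells together, so that the surface can be shed. The inhibitor LEKTI, encoded by Spink5, holds them in check, and its loss in human Netherton syndrome leads to uncontrolled shedding.

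The genes lie side by side on the plus strand of mouse chromosome 7, at chr7:43680880-43851181 of GRCm38 in the RefSeq annotation, a span of 170.3 kb. Their order from the low coordinate is Klk14, Klk13, Klk12, Klk11, Klk10, Klk9, Klk8, Klk7, Klk6 and Klk5. The stretch of coding sequence from the specificity pocket to just past the active-site serine is shown first. Its pocket codon sets Klk7 and Klk9 apart from the other members. Each line below gives 30 coding bases, 5′ to 3′, from GENCODE transcripts. The first capitals mark the codon at the base of the specificity pocket and the second the codon of the active-site serine, 6 codons further on.
Klk5: GACtcctgccagggtgatTCCggaggtcct
Klk6: GATtcctgtcagggtgatTCTggaggtccc
Klk7: AACacgtgcaatggtgacTCAggggggccc
Klk8: GACacgtgccagggtgacTCAggaggccct
Klk9: GGCtcttgccagggtgacTCTgggggaccc
Klk10: GACtcttgccagagtgacTCCggtggcccc
Klk11: GACtcctgtcagggtgacTCTggaggcccc
Klk12: GATgcctgtcagggtgacTCTggaggcccc
Klk13: GACtcctgtgagggtgatTCTgggggccca
Klk14: GACtcctgtcagggtgatTCTgggggaccc

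The pocket codon encodes aspartate in 8 of the 10 members. An aspartate at this place is the textbook mark of a trypsin-like protease, which cuts after lysine or arginine. Klk7 has an asparagine codon there and Klk9 a glycine codon. KLK7 is known as a chymotrypsin-like enzyme that cuts after large hydrophobic residues.

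HuR binds AU-rich elements, whose core is the pentamer ATTTA, and the 3′ untranslated regions of the members were searched for it. A match was found once each in Klk5, Klk7 and Klk13, and in none of the other 7 members. Those regions were 310, 907 and 801 bases long. The sites are shown with the pentamer in capitals, because HuR is the gene named on the labels.
Klk5: cgtcacccagATTTAgacctcaaat
Klk7: atagtagattATTTAcatgggagtt
Klk13: ccctcagactATTTAccccttggca
The pentamer stood in 63.9% of 19238 mouse genes with a 3′ untranslated region. Among genes whose region was within 25% of the same length, the share was 37.4% for Klk5, 70.4% for Klk7 and 66.1% for Klk13. A match to these letters is a description and not a binding site.

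The library labels were checked first on Elavl1 itself. It had 65.0, 59.3 and 78.4 CPM (counts per 1000000, with library sizes scaled by TMM) in KO tongues (replicates 1 to 3, the order used for all values below), against 61.7, 55.8 and 48.0 CPM in WT tongues. These groups overlapped, and the KO level was not below the WT level. The log2 fold change, KO over WT, was 0.29 ± 0.15 (SE), with an adjusted p of 0.180 (edgeR quasi-likelihood, Benjamini-Hochberg over all genes). The counts are summed over the whole gene, so RNA of a deleted allele could still be counted. Throughout, KO therefore means the libraries labelled KO.

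Over all genes, the same test called 765 higher in KO, 4.81% of those tested, and 1181 lower, 7.43%. Among the 10 kallikreins, 8 were called higher and none lower. In 9 of the 10 every KO library lay above every WT library, a pattern seen in 22.0% of all genes, with the opposite pattern in 22.1%. The median log2 fold change was 1.43 over the kallikreins and 0.0157 over all genes tested. These counts describe a family chosen on this contrast. Without KO replicate 1, KO replicate 2 or WT replicate 2, the called count among the kallikreins was 0 in each case, where edgeR called 0.0251%, 0% and 0% of all genes higher. At an unadjusted p under 0.05 there were then 9, 8 and 8 kallikreins. By that measure 1922, 1993 and 1640 of all genes were higher, and 2262, 2334 and 2329 lower. The count was 2 without KO replicate 3 (0.306% of all genes higher), 9 without WT replicate 1 (17.9%) and 7 without WT replicate 3 (1.81%). On all libraries it was 8 by limma-voom (6.14% of all genes higher) and 9 by DESeq2 (12.1%).

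**Figure D1:**
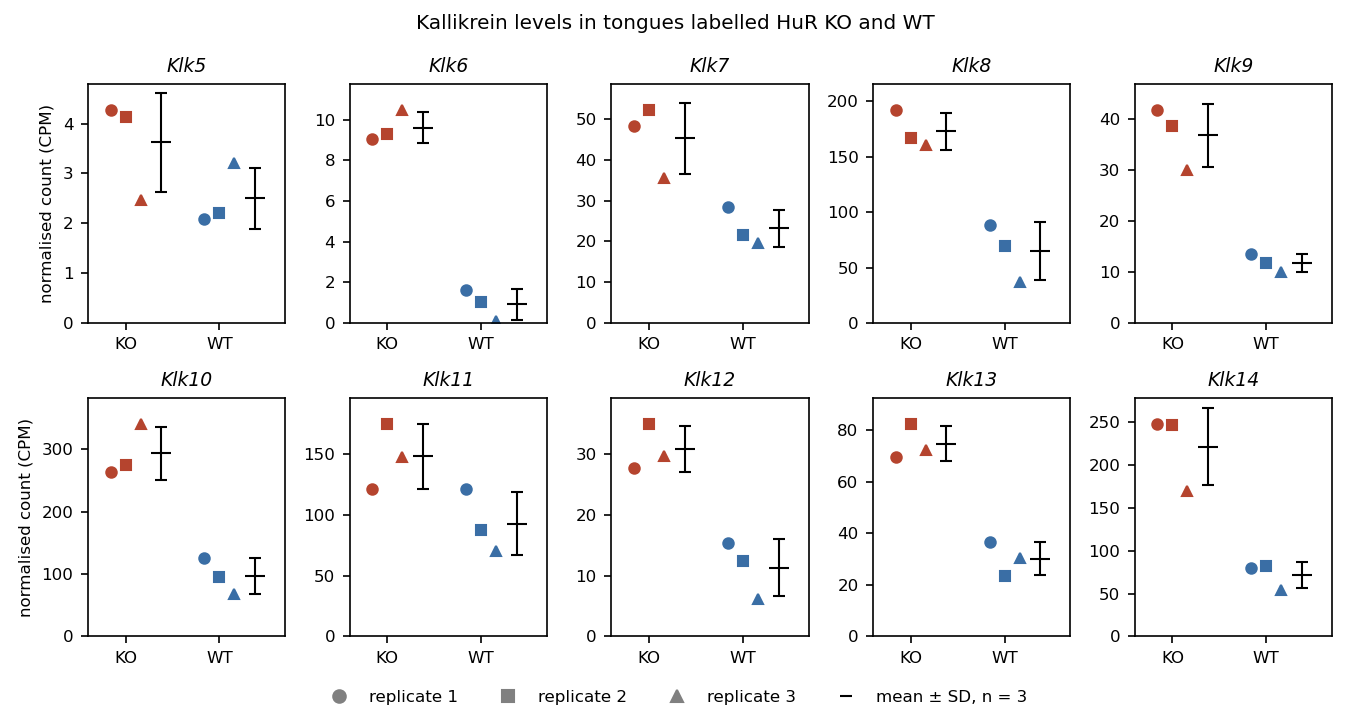
Normalised counts (CPM, y axis, each panel from 0) of the 10 kallikreins in the libraries labelled KO (left) and WT (right). Symbols are replicates 1, 2 and 3, and the black bars are the mean ± SD (n = 3). The groups are apart in 9 panels and overlap for Klk5.

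The desquamation cascade is usually described as starting with KLK5, a trypsin-like enzyme that activates itself, KLK7 and KLK14. Klk5 (gene ID 68668, chr7:43834157-43851181) had 4.27, 4.13 and 2.47 CPM in KO tongues, against 2.09, 2.21 and 3.20 CPM in WT tongues. KO replicate 3 sat below WT replicate 3, so the groups overlapped. Its log2 fold change was 0.54 ± 0.29 (95% interval -0.13 to 1.21), the smallest of the family. The libraries held between 73 and 196 Klk5 counts each.

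Klk7 (gene ID 23993, chr7:43811294-43816387), which cuts corneodesmosin and desmocollin 1, had 48.2, 52.2 and 35.5 CPM in KO tongues, against 28.3, 21.6 and 19.6 CPM in WT tongues. All 3 KO libraries were above the highest WT library. Klk7 had a log2 fold change of 0.97 ± 0.19, a fold of 1.95 (95% interval 1.43 to 2.66).

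Klk14 (gene ID 317653, chr7:43680880-43695536) is a trypsin-like enzyme that can cut desmoglein 1 and activate KLK5. It had 248, 247 and 169 CPM in KO tongues, against 79.6, 81.6 and 53.7 CPM in WT tongues. The lowest KO library, replicate 3, was still well above the highest WT library. For Klk14 the log2 fold change was 1.63 ± 0.22, a fold of 3.09 (2.18 to 4.38).

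Klk8 (gene ID 259277, chr7:43797532-43803826), also called neuropsin, is a trypsin-like protease of brain and skin in the mouse. It had 192, 167 and 161 CPM in KO tongues, against 88.6, 69.3 and 36.7 CPM in WT tongues. The KO libraries were close together, with a coefficient of variation of 9.64%, while the WT libraries were spread by 40.4%. The log2 fold change was 1.42 ± 0.29.

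Klk6 (gene ID 19144, chr7:43824438-43832027), or neurosin, is known from brain and from squamous tumours. It had the largest fold of the family. Its levels were 9.06, 9.28 and 10.5 CPM in KO tongues, against 1.63, 1.02 and 0.117 CPM in WT tongues. The lowest WT value, in replicate 3, rested on 3 counts, while the KO libraries held 416, 351 and 555. Its log2 fold change was 3.32 ± 0.57, with a wide 95% interval of 2.01 to 4.63. The authors' deposited table, which gives WT over KO, had -1.56 for Klk6 and -1.55 for Klk9 on the log2 scale, where DESeq2 without shrinkage, run here on the same counts, gave 3.36 ± 0.85 for Klk6 (KO over WT).

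Klk9 (gene ID 101533, chr7:43791625-43796758), is a little studied member. It had 41.7, 38.6 and 29.9 CPM in KO tongues, against 13.5, 11.6 and 9.89 CPM in WT tongues. The spread was alike in both groups, with a coefficient of variation of 16.7% in KO and 15.4% in WT, and the gap between the groups was far wider. The log2 fold change was 1.65 ± 0.18, a fold of 3.14 (2.37 to 4.17).

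Klk10 (gene ID 69540, chr7:43781054-43785410) was first named as a gene of normal epithelial cells that is silent in human breast tumour lines. It had 264, 275 and 342 CPM in KO tongues, against 126, 95.9 and 68.4 CPM in WT tongues. In KO, replicate 3, low for Klk5, Klk7, Klk9 and Klk14, was the highest library for Klk10. This gave a log2 fold change of 1.60 ± 0.23.

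Klk12 (gene ID 69511, chr7:43768891-43773581), a trypsin-like member, had 27.7, 35.0 and 29.7 CPM in KO tongues, against 15.4, 12.3 and 6.21 CPM in WT tongues. Its log2 fold change was 1.44 ± 0.30. Klk13 (gene ID 626834, chr7:43712567-43727864), which lies in the cluster between Klk14 and Klk12, had 69.6, 82.6 and 72.4 CPM in KO tongues, against 36.5, 23.6 and 30.4 CPM in WT tongues. Its KO libraries agreed within a coefficient of variation of 9.15%, and its log2 fold change was 1.31 ± 0.17. Both genes had KO libraries wholly above the WT libraries.

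Klk11 (gene ID 56538, chr7:43774617-43779263), or hippostasin, stands apart from its abundant neighbours. It had 121.5, 175 and 147.5 CPM in KO tongues, against 121.1, 87.2 and 69.9 CPM in WT tongues. KO replicate 1 and WT replicate 1 were almost level. Its log2 fold change was 0.67 ± 0.22, and Klk11 was with Klk5 one of the 2 members that edgeR and limma-voom did not call. DESeq2 called Klk11 but not Klk5. Its 95% interval was 0.16 to 1.18.

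Levels can be set side by side only per length, and were divided by the kb of GENCODE exon in each gene. In KO tongues the order by mean CPM per kb was Klk10 at 214, Klk14 at 174, Klk8 at 113, Klk11 at 101, Klk13 at 32.6, Klk12 at 25.8, Klk9 at 24.9, Klk7 at 23.9, Klk6 at 6.35 and Klk5 at 2.71. Klk10 and Klk14 overlapped in this order, as did Klk8 and Klk11, Klk12 and Klk9, and Klk9 and Klk7. In WT tongues the order was Klk10 at 70.5, Klk11 at 63.2, Klk14 at 56.4, Klk8 at 42.1, Klk13 at 13.1, Klk7 at 12.2, Klk12 at 9.47, Klk9 at 7.90, Klk5 at 1.87 and Klk6 at 0.611. Among WT neighbours, ranges were apart only between Klk8 and Klk13, between Klk9 and Klk5, and between Klk5 and Klk6. The least abundant pair changed places, with Klk6 above Klk5 in each of the 3 KO libraries and below it in each of the 3 WT libraries.

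As shares of the summed CPM per kb, Klk11 made up 11.6%, 15.9% and 14.6% of the pool in KO tongues, against 23.6%, 21.2% and 23.7% in WT tongues. Klk6 made up 0.842%, 0.818% and 1.00% in KO tongues, against 0.309%, 0.241% and 0.0385% in WT tongues. Klk7 was also a smaller share in every KO library, 3.57%, 3.67% and 2.71%, than in any WT library, 4.27%, 4.06% and 5.13%. Klk10 was the leading member by mean in both groups, at 29.9% ± 5.28 in KO and 25.3% ± 0.830 in WT (SD, n = 3 each). Klk10, Klk14, Klk8 and Klk11 were the 4 leading genes in every library, with less weight on Klk11 in KO.

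**Figure D2:**
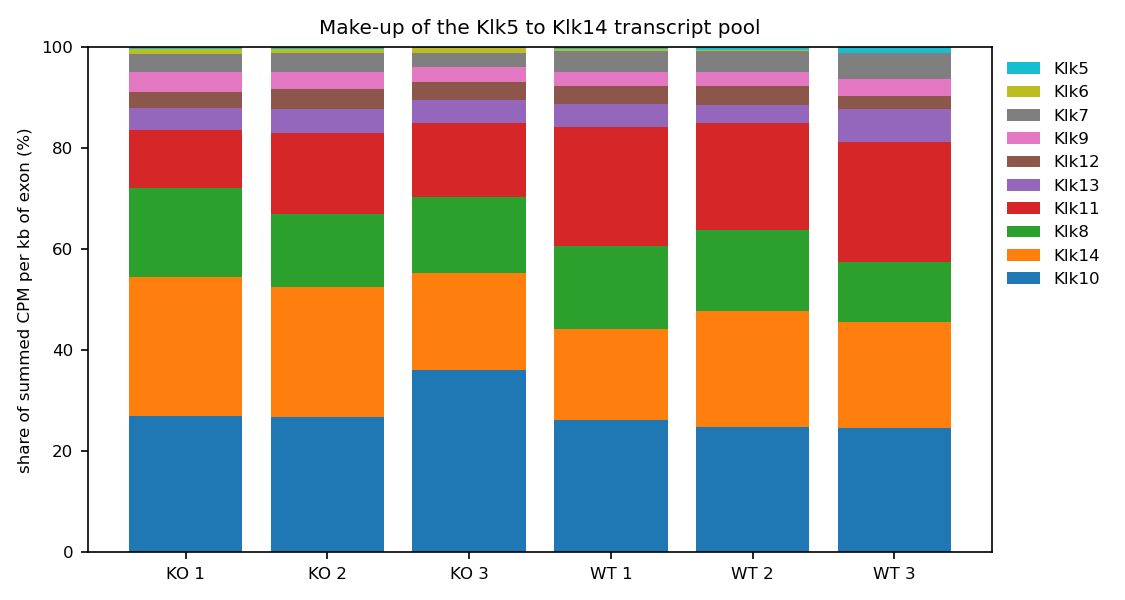
Share of each kallikrein in the summed CPM per kb of exon (y axis, %) in each library, KO replicates at left and WT replicates at right. The Klk11 band is narrower in the 3 KO libraries (mean 14.0%) than in the 3 WT libraries (mean 22.8%).

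Summed over the family, the level was 1026, 1086 and 999 CPM in KO tongues, against 513, 406 and 298 CPM in WT tongues. That was 0.109%, 0.118% and 0.103% of all counts in KO, against 0.0532%, 0.0380% and 0.0258% in WT. The KO libraries differed little from each other, while WT replicate 3 was the lowest library for 8 of the 10 members.

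The level of epithelial and muscle markers moved with the same groups. Krt13, a keratin of lining mucosa and tongue, averaged 13015 ± 2919 CPM in KO and 8730 ± 1701 CPM in WT (SD, n = 3 each), so tongue epithelium was present in both. The 13 pan-epithelial marker genes summed to between 18280 and 20607 CPM in KO tongues, against 6309 to 14199 CPM in WT tongues, and KO was above WT in 12 of them. The 18 skeletal muscle markers summed to between 44610 and 63037 CPM in KO, against 78964 to 145019 CPM in WT, and edgeR called 5 lower (DESeq2 13, limma-voom 7). The 15 suprabasal markers ran from 22287 to 34498 CPM in KO, against 16461 to 22613 CPM in WT, and edgeR called 7 higher (DESeq2 11, limma-voom 7). In bulk tissue, fewer cells of a type and less RNA per cell cannot be told apart.

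Set against the pan-epithelial markers, the family sum was 52.6, 52.7 and 54.7 per 1000 marker counts in KO tongues, against 36.1, 44.3 and 47.3 in WT tongues. The groups were still apart, but the log2 ratio of means was 0.32, where it was 1.35 in CPM. By this measure 6 members (Klk6, Klk8, Klk9, Klk10, Klk12 and Klk14) were above WT in every KO library, a pattern seen in 1.13% of all genes under this scaling. Klk5, Klk7 and Klk13 overlapped, and Klk11 was below WT. Klk11 had 6.22, 8.49 and 8.07 per 1000 in KO, against 8.53, 9.51 and 11.1 in WT.

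Against the suprabasal markers, which mark the layers where kallikreins are made, the sum was 29.7, 33.9 and 44.8 per 1000 in KO and 28.4, 18.0 and 18.1 in WT, a log2 ratio of 0.75. This scaling was added after the data were seen. It divides by a sum of counts, in which abundant markers such as Krt13 weigh most. As a mean of log2 CPM, the suprabasal markers were at 8.76 in KO and 7.49 in WT. By the same measure the kallikreins were at 5.75 and 4.22. The median log2 fold change by edgeR was 1.10 over the suprabasal markers and 1.43 over the kallikreins. Klk6, Klk8, Klk9, Klk10 and Klk14 were above WT in every KO library (1.69% of all genes under this scaling), and the other 5 overlapped. These counts, too, describe a family chosen on this contrast. Klk6 kept the largest ratio under both scalings, at 2.60 on the log2 scale per pan-epithelial count and 2.84 per suprabasal count. With the mean of the pan-epithelial or of the muscle markers as a term in the edgeR fit, no kallikrein was called. At an unadjusted p under 0.05 there were 4 and 8 kallikreins. By that measure 246 and 404 of all genes were higher, and 317 and 495 lower. Marker content and label move together over these 6 libraries, so their parts in the kallikrein values cannot be told apart. With the pan-epithelial term, Klk8 had a log2 fold change of 0.22 ± 0.25, Klk12 of 0.27 ± 0.33, Klk7 of 0.30 ± 0.27 and Klk6 of 1.33 ± 0.80. In the same fit Klk9 had 1.09 ± 0.27, Klk13 1.02 ± 0.30 and Klk5 0.95 ± 0.60. Klk14 had 0.93 ± 0.33, Klk10 0.89 ± 0.31 and Klk11 -0.07 ± 0.28.

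**Figure D3:**
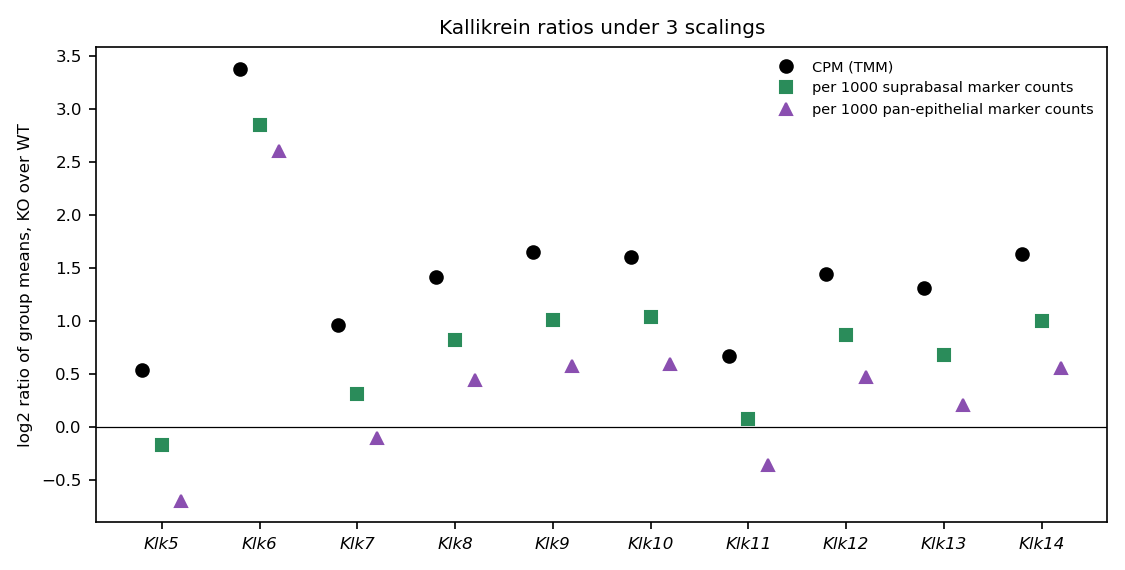
Log2 ratio of group means, KO over WT (y axis), of each kallikrein under 3 scalings: CPM, per 1000 suprabasal marker counts and per 1000 pan-epithelial marker counts. Klk6 stays highest, from 3.38 to 2.60, and Klk5, Klk7 and Klk11 lie below 0 per pan-epithelial count.

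The sexes were not balanced either. By Xist and 4 Y-linked genes, KO replicate 1 and all 3 WT libraries came from males, and KO replicates 2 and 3 from females. The male KO library was above every male WT library in 10 of 10 members, as it was for 38.6% of all genes, though for Klk11 by only 121.5 against 121.1 CPM. With sex as a term in the edgeR fit no member was called, and 8 had an unadjusted p under 0.05. By that measure 1672 of all genes were higher and 1860 lower. No WT library was female, so the part of sex in the values of KO replicates 2 and 3 was not tested.

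Salivary tissue is another possible source of kallikreins, and its markers were at low levels. Amy1, the most abundant of 16 salivary gland markers, had 24.4 to 34.2 CPM in KO and 27.4 to 85.7 CPM in WT. Of the 16, 7 (among them Pip, Smr3a and Dcpp1) had no count in any library. The whole list summed to between 32.2 and 38.4 CPM in KO and 29.2 to 88.2 CPM in WT. The other tissue kallikreins, most of them glandular, were nearly silent. Klk1, the tissue kallikrein that releases kinins, averaged 0.846 ± 0.423 CPM in KO and 0.695 ± 0.305 CPM in WT (SD, n = 3 each), and Klk4, the enamel protease, 0.0991 and 0.0304 CPM. Only Klk1 and Klk15 of these 16 genes could be tested, and neither was called by edgeR, DESeq2 or limma-voom or had an unadjusted p under 0.05. The 13 Klk1b genes are near-identical copies, whose counts are uncertain.

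Values along the chromosome were compared next. RefSeq lists 19 further genes between the outermost kallikreins or within 200 kb of them, and 8 had enough counts to be tested. None was called by edgeR, DESeq2 or limma-voom, and none had an unadjusted p under 0.05. On the Klk14 side, Ctu1, a tRNA-modifying enzyme, had a log2 fold change of 0.16 ± 0.15. Siglece, a receptor of myeloid cells, had 0.98 ± 0.51, Zfp719 had 0.06 ± 0.16, Zfp658 had -0.10 ± 0.18, Cd33 had 0.45 ± 0.22 and Iglon5 had -0.13 ± 0.33. Beyond Klk5, Klk15 had 1.32 ± 0.85 from 1 to 32 counts a library.

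Inside the cluster, the noncoding gene 2310002F09Rik had 1.36 to 4.14 CPM in KO, against 1.17 to 2.06 CPM in WT, a log2 fold change of 0.86 ± 0.42. In GENCODE it lies on the opposite strand and shares 382 exon bases with Klk8, 24.8% of that gene's exons, and 287 with Klk14, 22.6%. In RefSeq it lies at chr7:43745466-43755936, between Klk13 and Klk12, and overlaps neither Klk8 nor Klk14. No source used here gives the strand setting of the counting, and whether reads were shared as in the GENCODE model was not tested. Its level was a small part of that of Klk8 or Klk14.

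**Figure D4:**
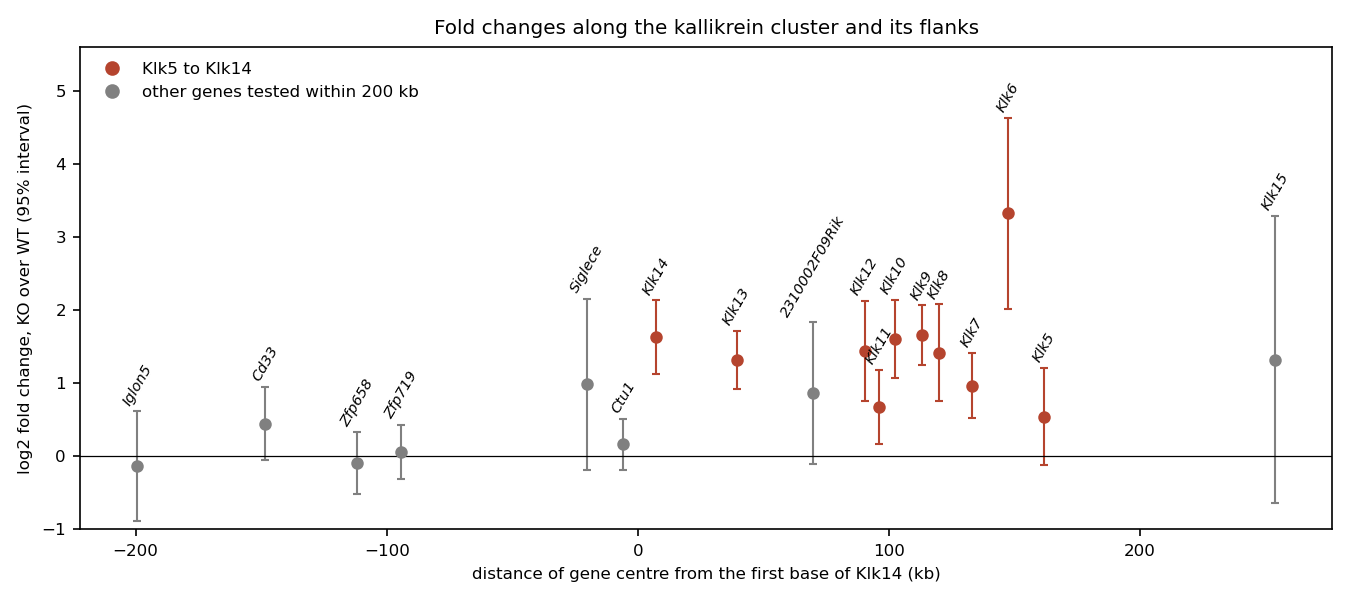
Log2 fold change, KO over WT, with its 95% interval (y axis) against the distance of each gene's centre from the first base of Klk14 (x axis, kb). Red points are the 10 kallikreins and grey points the 8 other genes tested within 200 kb. All 10 red points are above 0, from 0.54 for Klk5 to 3.32 for Klk6, and the grey intervals all include 0.

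Promoter windows of the members, from 250 bases before to 50 after a listed start site, were taken for GRCm38.p6. There were 12 windows for the 10 genes. A listed start site need not be the first base of the RefSeq gene. The only windows of Klk5, at chr7:43842019-43842318, and Klk14, at chr7:43690168-43690467, lay well inside the gene spans given above. The 5′ ends of those spans were not searched. Both strands were searched for 4 motifs. The AP-1 motif TGANTCA was in 0 of the 12 windows and in 7.81% of 32851 mouse windows of the same length. The Grainyhead motif AACNNGTT was in 0 (4.20% of all windows) and TATAAA in 0 (13.6%). The motif CCAAT was in 2 (37.4% of all windows), that of Klk9, 111 bases before the start, and the second of Klk11. Windows are shown for Klk9, the one member with CCAAT ahead of its start, with the match in capitals, and for Klk5 and Klk6, neighbours on the chromosome with the smallest and the largest fold. All are on the plus strand, at chr7:43791641-43791940 for Klk9, chr7:43842019-43842318 for Klk5 and chr7:43825200-43825499 for the second Klk6 window.
Klk9: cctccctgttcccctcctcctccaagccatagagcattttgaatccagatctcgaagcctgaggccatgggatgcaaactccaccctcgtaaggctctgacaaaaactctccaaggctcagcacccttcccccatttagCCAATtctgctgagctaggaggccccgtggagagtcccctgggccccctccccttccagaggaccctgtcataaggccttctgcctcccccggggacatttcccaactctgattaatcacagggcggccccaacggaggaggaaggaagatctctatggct
Klk5: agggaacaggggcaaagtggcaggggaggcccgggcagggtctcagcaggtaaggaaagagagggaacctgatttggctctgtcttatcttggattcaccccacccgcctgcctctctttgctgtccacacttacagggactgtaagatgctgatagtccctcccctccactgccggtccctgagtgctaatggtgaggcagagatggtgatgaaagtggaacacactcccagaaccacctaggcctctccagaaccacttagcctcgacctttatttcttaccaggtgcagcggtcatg
Klk6: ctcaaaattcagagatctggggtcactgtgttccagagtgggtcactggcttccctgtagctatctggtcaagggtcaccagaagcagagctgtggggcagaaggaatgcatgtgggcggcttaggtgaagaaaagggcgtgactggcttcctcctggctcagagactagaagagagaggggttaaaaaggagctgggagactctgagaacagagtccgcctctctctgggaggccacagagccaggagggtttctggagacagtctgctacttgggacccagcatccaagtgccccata

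Beyond the proteases themselves, their inhibitors were examined, and 7 of 8 listed genes could be tested. Spink5 was the only gene of the list that edgeR called, and limma-voom also called 1. DESeq2 called 3 higher (Spink5, Spink7 and Spink12) and 1 lower (Serpinb6a). It had 1292, 539 and 306 CPM in KO tongues, against 180, 180 and 60.1 CPM in WT tongues, a log2 fold change of 2.35 ± 0.60 (adjusted p 0.0450 by edgeR). The KO libraries differed among themselves more than for any kallikrein. Per Spink5 count there were 0.794, 2.01 and 3.27 kallikrein counts in KO, against 2.84, 2.26 and 4.96 in WT, so these groups overlapped.

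Values of the other inhibitors, none called by edgeR, follow. Spink12 averaged 1.99 ± 0.567 CPM in KO and 0.548 ± 0.456 CPM in WT, and Spink7, known from human oesophagus, 1.59 ± 1.01 and 0.293 ± 0.275 CPM (SD, n = 3 each). Serpina12, or vaspin, which inhibits KLK7 in human, averaged 8.93 ± 5.55 CPM in KO and 4.01 ± 2.58 CPM in WT. Serpinb6a was the one abundant inhibitor with lower values in KO, at 158 ± 10.3 CPM in KO and 236 ± 50.9 CPM in WT, with an adjusted p of 0.0622 by edgeR. A2m and Spink6 had at most 1.11 CPM in a library, and Serpina5 at most 0.0287 CPM.

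St14 encodes matriptase, a membrane protease that activates prokallikreins in mouse epidermis. It rose to 105, 99.7 and 102 CPM in KO tongues, against 66.5, 47.5 and 37.0 CPM in WT tongues (log2 fold change 1.02 ± 0.20, adjusted p 0.0333 by edgeR). Prss8, or prostasin, which works with matriptase, averaged 19.7 ± 1.94 CPM in KO and 13.5 ± 3.53 CPM in WT (SD, n = 3 each) and was not called by edgeR, DESeq2 or limma-voom. Mep1a and Mep1b, the meprins, had at most 2 counts in a library. Without KO replicate 1, 2 or 3 or WT replicate 2, neither Spink5 nor St14 was called, nor was Spink5 without WT replicate 1 or 3 or, on all libraries, without the filter on low counts.

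Of the kallikrein substrates, 6 of 10 listed genes could be tested and 3 rose by edgeR (4 by DESeq2 and 4 by limma-voom), all 3 of them adhesion proteins of the upper layers. Cdsn, corneodesmosin, had 248, 217 and 135 CPM in KO tongues, against 81.6, 75.6 and 51.0 CPM in WT tongues (log2 fold change 1.53 ± 0.26, adjusted p 0.0312 by edgeR). Dsc1, desmocollin 1, averaged 374 ± 183 CPM in KO and 80.6 ± 42.8 CPM in WT (2.21 ± 0.54, adjusted p 0.0425 by edgeR). Dsg1b, a mouse desmoglein 1, averaged 129 ± 56.5 CPM in KO and 40.7 ± 18.7 CPM in WT (1.66 ± 0.44, adjusted p 0.0496 by edgeR; SD, n = 3 each).

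Its near copy Dsg1a missed the threshold by edgeR but not by DESeq2, at 170 ± 75.1 CPM in KO and 64.5 ± 25.2 CPM in WT (adjusted p 0.0590 by edgeR), and reads may be shared between the copies. F2rl1, the receptor PAR2 that kallikreins can cleave, averaged 8.83 ± 1.86 CPM in KO and 6.54 ± 1.75 CPM in WT and was not called by any of the 3 tools. Il1b averaged 19.4 ± 4.97 CPM in KO and 6.13 ± 7.10 CPM in WT and was called only by limma-voom (SD, n = 3 each). Dsg1c, Flg2 and Camp had at most 0.159 CPM in a library. The substrate count of 3 was 0 without KO replicate 1, KO replicate 2 or WT replicate 2 and 1 without KO replicate 3 or WT replicate 3, and also 1 on all libraries without the filter on low counts.

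Among 8 other proteases of the cornified layer, 2 rose by each of edgeR, DESeq2 and limma-voom. Casp14, the caspase of filaggrin processing, averaged 18.5 ± 7.40 CPM in KO and 6.62 ± 1.84 CPM in WT (log2 fold change 1.48 ± 0.31, adjusted p 0.0357 by edgeR). Blmh, bleomycin hydrolase, averaged 204 ± 27.2 CPM in KO and 109 ± 19.8 CPM in WT (0.90 ± 0.18, adjusted p 0.0331 by edgeR). Asprv1, Ctsd, Ctsh, Ctsb, Ctsl and Cela1 were not called by any of these, with log2 fold changes from -0.80 to 0.42. Of these, Ctsb, Ctsl and Cela1 had every KO library below every WT library, a pattern seen in 22.1% of all genes. The count of 2 was 0 without any KO replicate or WT replicate 2 and 1 without WT replicate 3.

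Of 12 partners of the corneodesmosome and barrier, 4 rose by edgeR, against 8 by DESeq2 and 5 by limma-voom, and all 12 had log2 fold changes above 0. Beside Spink5 these were Tgm1, a transglutaminase of the envelope, at 385 ± 10.9 CPM in KO and 137 ± 56.8 CPM in WT (log2 fold change 1.49 ± 0.28, adjusted p 0.0325 by edgeR), Krt10 (2.35 ± 0.52, adjusted p 0.0375 by edgeR) and the lipid transporter Abca12 (1.88 ± 0.47, adjusted p 0.0446 by edgeR). Jup and Dsp, plaque proteins of the desmosome, had log2 fold changes of 0.97 ± 0.26 and 1.20 ± 0.36 and were not called by edgeR. DESeq2 called both, and limma-voom Jup. The count of 4 was 0 without any KO replicate or WT replicate 2, 8 without WT replicate 1, 2 without WT replicate 3 and 2 on all libraries without the filter on low counts. No basal keratinocyte marker of 10 was called by edgeR, and at an unadjusted p under 0.05 there were 4 higher and 1 lower. DESeq2 called 3 of them higher and 1 lower, and limma-voom 1 lower.

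The kallikreins were also compared with each other across the 6 libraries, as a description, since all libraries share the group difference and its epithelial content. The median Pearson r over the 45 pairs was 0.92. It was 0.58 within groups, after each group's mean was taken away. Over all 6 libraries Klk5 was the exception, with a median r of 0.39 to the other 9. Within groups the lowest medians were -0.47 for Klk5, 0.22 for Klk13 and 0.31 for Klk10. Single pairs ran from -0.84 to 0.96 within groups. Among other genes with a mean of at least 1 CPM, those closest to the family's mean pattern over the 6 libraries were Ptk6 (r = 0.999), Endou, Smagp, Reep4, Apex1 and 2810008D09Rik. Many genes were as close: 665 of 14219, or 4.68%, had an r over 0.95.

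Ptk6, a tyrosine kinase of differentiating epithelium, had 16.1, 18.3 and 13.9 CPM in KO tongues, against 6.08, 4.15 and 2.93 CPM in WT tongues. Endou, an endoribonuclease, averaged 216 ± 44.4 CPM in KO and 54.8 ± 21.8 CPM in WT (SD, n = 3 each). These genes were chosen by their likeness, so their difference is not tested further.

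The authors' deposited table for all 6 libraries gives log2 fold changes as WT over KO. All 10 kallikreins were below 0 in the authors' deposited table, that is, higher in KO, and 9 had an adjusted p under 0.05, with Klk5 the exception, against 12.4% of all genes that passed as higher in KO there. In the authors' deposited table of 4 libraries without KO replicate 3 and WT replicate 2, 7 had an adjusted p under 0.05 (3.61% of all genes), and in that without KO replicate 3 and WT replicate 1, 9 did (16.3%). These tables share libraries, so they are not separate evidence.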

How the data were processed

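Total RNA of 6 tongue samples was sequenced from Illumina TruSeq libraries, per the labels' protocols. The authors deposited whole-number read counts per gene, 29543352 to 51520707 per library, with 1 table of all 6 libraries and 2 of 4 libraries. Per the file headers they also hold each gene's mean normalised count (a signal), the authors' log2 fold change and its error, a test statistic (a score), and raw and adjusted p-values. Per the submitters' processing notes HTSeq and DESeq2 were used and the builds were hg19 and mm10; the sources used here give neither aligner nor strand setting.

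Counts were fitted with edgeR 4.0.16 in R 4.3.3 (filterByExpr at 10 counts, TMM, robust quasi-likelihood, group as only term), with Benjamini-Hochberg adjustment over 15903 genes called below 0.05. Variation between libraries of a group beyond counting noise, as edgeR estimates it, came to 20.7% (coefficient of variation). SE is the absolute log2 fold change over the square root of F. Libraries of one group differed by 50.3 to 186 times counting noise (chi-square per degree of freedom). DESeq2 1.42.0 and limma 3.58.1 were alternatives. The fit was tested on simulated data. Exon lengths, strands and untranslated regions are from GENCODE vM21, and gene coordinates and promoters from RefSeq. Of 23795 gene identifiers, 23714 matched RefSeq.

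The members and gene lists were chosen with earlier results of these data known. Named genes are the members, Elavl1, the other tissue kallikreins, every gene of a list with 10 or fewer measured and otherwise the 6 with the smallest adjusted p, the 6 genes most like the members' mean, and tested genes within 200 kb.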

Additional observations from a re-analysis of the deposited data

How the results depend on the processing

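The family was chosen on this contrast and the alternatives share libraries, so the tally that follows is a description and not separate evidence. The kallikreins stayed above 0 in 139 of 140 values over all members and alternatives, from -0.0722 to 3.91 on the log2 scale. The exception was Klk11, at -0.0722 with the pan-epithelial mean as a covariate; the cause was not tested. With that covariate Klk8 was at 0.22, Klk12 at 0.27, Klk7 at 0.30 and Klk6 at 1.33. Klk5, Klk9, Klk10, Klk13 and Klk14 were then between 0.89 and 1.09. The median log2 fold change of the family was 0.91 with it and 0.98 with the muscle covariate, and ran from 1.23 to 1.72 when each library was left out. The log2 ratio of the family sum was 0.32 per pan-epithelial count and 0.75 per suprabasal count, against 1.35 in CPM.

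The number of calls was less stable than the values. DESeq2 called 1881 genes higher and 2468 lower, with 17 in the pathway lists, against 10 by edgeR, and without a filter on low counts the lists held 6. When each library was left out, edgeR called 0 to 9 kallikreins, 0 to 15 genes of the lists, 0 to 2906 genes higher and 0 to 2938 lower. In edgeR fits with a muscle, pan-epithelial or sex covariate, 0 genes were called in either direction, 0 kallikreins and 0 genes of the lists. At an unadjusted p under 0.05 these fits had 404, 246 and 1672 genes higher, and 8, 4 and 8 kallikreins.

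Same-numbered libraries deviated from their group means with correlations of 0.12, -0.16 and 0.19. Differently numbered libraries ran from -0.22 to 0.17, so these values cannot settle whether the samples were paired. With the replicate block edgeR called 1705 genes higher, 2112 lower, 21 in the lists and 8 kallikreins. With 3 libraries a group, an exact permutation test of a single value cannot go below p = 0.1. At 1 CPM a library holds 25.6 to 53.0 counts.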
